A study of Mus musculus with 10 samples.

Results

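The genes described here are those of fatty acid synthesis: the enzymes that make cytosolic acetyl-CoA, build the fatty acid chain and desaturate it, the enzymes that supply NADPH and oxaloacetate, and the regulator Srebf1. Members were taken by gene symbol from a list of 10, and 7 of the 10 had a probe set annotated to that symbol alone, out of 6137 genes so annotated in the series. These were Acly, Fasn, Scd1, Scd2, Me1, Pgd and Pcx, with 8 probe sets, 6 on chip A and 2 on chip B, plus 4 control segments of the Pcx message that both chips carry. Acaca, G6pdx and Srebf1 were not analysed here. The tissues were liver, white adipose tissue, pancreas, muscle and hypothalamus, all from adult female mice of the C57BL/6 strain, with no treatment named. One-colour Affymetrix arrays measured total RNA, with 1 array per tissue on chip A and 1 on chip B, so there were 10 arrays. The sources used here do not give the number of animals behind an array or their feeding state. For white adipose the source label was followed, although its title calls the sample preconfluent, a term for cultured cells.

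Fatty acid synthesis runs in the cytosol. ATP citrate lyase turns exported citrate into acetyl-CoA, acetyl-CoA carboxylase makes malonyl-CoA from it, and fatty acid synthase joins these units into palmitate with NADPH as reductant. Malic enzyme and the pentose phosphate pathway supply the NADPH, pyruvate carboxylase replaces the oxaloacetate that leaves mitochondria as citrate, and stearoyl-CoA desaturases put a double bond into the product. In the mouse, liver and adipose tissue are the main sites of this synthesis, insulin and feeding raise it, and in oligodendrocytes it serves myelin.

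No tissue had a replicate array on either chip. The differences below therefore carry no test and no spread over animals, and precision is limited by 1 array each. Values are the deposited intensities after each array was scaled by its trimmed mean. The noise bound of an array is the size of its 1st percentile, which is below 0. It was 295.3 for liver, 390.1 for white adipose, 1166 for pancreas, 1065 for muscle and 258 for hypothalamus on chip A, while on chip B it was 792 for liver, 918 for white adipose, 2608 for pancreas, 1639.5 for muscle and 649.5 for hypothalamus. A value under its bound was raised to it before a ratio was taken, and the ratio is then given as "at least". Liver and white adipose were called apart where they differed by at least 2-fold by this rule. The adipocyte markers fixed for the check of the labels read above the bound of the white adipose arrays for 8 of 8 genes and above that of the liver arrays for 1 of 8, Lipe, at 487 in liver. Hepatocyte markers were above the bound for 8 of 9 genes in liver and for 1 of 9 in white adipose, Cyp2e1, at 16351 in liver and 17182 in white adipose. Markers were highest in their own tissue for 6 of 9 hepatocyte genes, 8 of 8 adipocyte, 6 of 6 acinar, 8 of 8 skeletal muscle, 6 of 6 neuron and 4 of 6 oligodendrocyte genes. Among the exceptions Apoa1 was under the bound in every tissue, and of the oligodendrocyte genes Mbp read 708 in hypothalamus and 782 in muscle, and Cnp -504 in hypothalamus and 1949.8 in pancreas. The hepatocyte markers were also above the bound for 4 of 9 genes in pancreas and 4 of 9 in muscle, among them Alb, at 18122 in liver, 26266 in pancreas and 8226 in muscle.

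The second chip of each tissue, taken as a repeat of the hybridisation, gives the only measure of error. Of 76 probe sets on both chips, 15, hybridisation spikes among them, lay above the bounds on both chips in liver and in white adipose. Their log2 ratio of liver over white adipose on chip B minus that on chip A had a median of 0.20 and an SD of 0.19 (n = 15 probe sets), and its largest size was 0.62, or 1.54-fold. This covers hybridisation and scanning if both chips of a tissue received the same RNA, which was not established here. It is no measure of the spread between animals. Where a difference below is under 1.54-fold it was within the change that this repeat alone made.

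Of the members' 8 probe sets 7 were called lower in liver than in white adipose and none was called higher. The 7 lay at least 2-fold apart, against a background of 5.90% of 13057 probe sets lower in liver (771) and 4.14% higher (541) by the same rule. Of all probe sets 9177 had no ratio and could not be called, which held for no member. These were under both bounds or had a limit that gave no direction. Over the 3880 others 19.9% were lower and 13.9% higher. That background depends on the scaling: 585 were lower and 696 higher with the 75th percentile, and 1202 were lower and 432 higher with the hybridisation spikes, while 7 members stayed lower and none higher under both. The remaining probe set, that of Scd1, was not called apart. The members' log2 ratio of liver over white adipose had a median of -2.54 and ran between -4.78 and 0.40, while the 3880 probe sets with a ratio had a median of -0.23, which became 0.06 with the 75th percentile and -0.65 with the spikes. In bulk tissue a difference in the number of cells of a type and a difference in message per cell cannot be told apart. Stromal markers moved the same way as the members, with 1 of 4 genes above the bound in liver against 4 of 4 in white adipose, and a summed intensity of 5841 in liver and 65434 in white adipose. Macrophage markers summed to 3680.4 in liver and 14684 in white adipose, with 2 of 5 against 4 of 5 genes above the bound, and adipocyte markers to 1019.6 in liver and 96222 in white adipose. The part of these cells in the members' values was not tested.

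**Figure D1:**
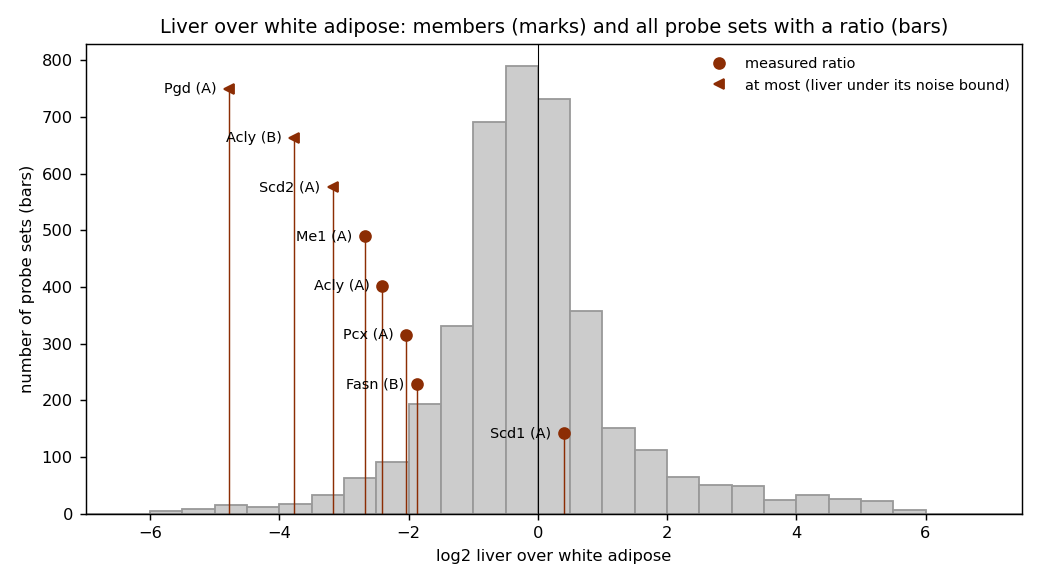
Log2 ratio of liver over white adipose for the 8 member probe sets (red marks, with the chip in parentheses) over the distribution of the 3880 probe sets with a ratio (grey bars, number per 0.5 log2 units). The 7 other marks lie at or left of -1.87, while Scd1 lies at 0.40; left-pointing marks are upper limits because liver was under its noise bound.

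The starts of 5 of the 6 genes that read lower in liver are in the RefSeq table of promoters, and the 250 bases before each are shown because these genes differed together between the tissues. Sequences are from the mouse build GRCm38.p6, written 5′ to 3′ on the gene's strand, and capitals mark matches on either strand to the letters listed after them.
Acly: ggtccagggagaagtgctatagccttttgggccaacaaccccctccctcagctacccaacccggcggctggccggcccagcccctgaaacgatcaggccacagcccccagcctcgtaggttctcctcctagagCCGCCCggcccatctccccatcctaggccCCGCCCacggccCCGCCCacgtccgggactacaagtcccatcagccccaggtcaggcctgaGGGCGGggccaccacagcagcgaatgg
Fasn: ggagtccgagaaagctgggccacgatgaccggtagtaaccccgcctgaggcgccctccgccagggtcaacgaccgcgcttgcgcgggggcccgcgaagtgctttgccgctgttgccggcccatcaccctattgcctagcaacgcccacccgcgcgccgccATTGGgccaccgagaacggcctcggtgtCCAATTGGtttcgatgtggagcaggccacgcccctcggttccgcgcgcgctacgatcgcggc
Me1: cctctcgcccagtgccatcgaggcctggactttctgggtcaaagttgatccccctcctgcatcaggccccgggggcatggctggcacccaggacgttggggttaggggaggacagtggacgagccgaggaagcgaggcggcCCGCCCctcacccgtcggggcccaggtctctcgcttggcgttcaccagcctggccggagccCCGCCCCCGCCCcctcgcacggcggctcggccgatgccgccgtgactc
Pgd: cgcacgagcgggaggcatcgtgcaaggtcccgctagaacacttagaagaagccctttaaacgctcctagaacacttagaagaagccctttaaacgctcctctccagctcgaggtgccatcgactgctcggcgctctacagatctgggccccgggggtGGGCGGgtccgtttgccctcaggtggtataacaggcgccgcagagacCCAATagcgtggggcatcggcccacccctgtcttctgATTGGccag
Pcx: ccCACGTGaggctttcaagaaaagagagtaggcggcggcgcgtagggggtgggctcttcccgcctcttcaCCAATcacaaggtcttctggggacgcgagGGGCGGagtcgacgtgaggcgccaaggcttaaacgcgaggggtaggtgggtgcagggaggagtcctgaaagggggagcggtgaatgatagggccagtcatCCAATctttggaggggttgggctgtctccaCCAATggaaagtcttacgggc
The windows are chr11:100528001-100528250 for Acly, chr11:120824548-120824797 for Fasn, chr9:86695915-86696164 for Me1, chr4:149166706-149166955 for Pgd, all on the minus strand, and chr19:4510222-4510471 on the plus strand for Pcx. For Me1, Pgd and Pcx the table has a second start, not shown. The letters searched on both strands were CCAAT (the box bound by NF-Y), GGGCGG (the GC box bound by Sp1), CACGTG (an E-box of the kind that USF and ChREBP bind) and TCACNCCAC (a form of the sterol regulatory element), where N is any base. CCAAT had 3 matches before Fasn, of which the pair nearest the start share bases on opposite strands, and it had 3 before Pcx and 2 before Pgd, while 33.8% of the 32851 promoter windows in the table had a match. GGGCGG had 4 matches before Acly, 3 before Me1, 1 before Pgd and 1 before Pcx, against 32.7% of all windows with a match. CACGTG was found once, near the far end of the window of Pcx (6.02% of all windows), and TCACNCCAC in none of the 5 (1.05% of all windows). These matches describe letters and not bound sites.

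Acly, ATP citrate lyase, which makes the cytosolic acetyl-CoA, was highest in white adipose by both of its probe sets. On chip A it read 3020.2 in liver, 15983 in white adipose, 1743 in pancreas, 1352 in muscle and 2989 in hypothalamus. White adipose stood alone at the top, 5.35-fold above hypothalamus, while liver, hypothalamus, pancreas and muscle formed a run in which no neighbours were 2-fold apart. Liver was 5.29-fold lower than white adipose (log2 ratio -2.40). On chip B a different probe set read 501 in liver, 10780.2 in white adipose, 42.1 in pancreas, 239.9 in muscle and 270.0 in hypothalamus. Only white adipose was above its noise bound there, and liver was at least 13.6-fold lower (log2 ratio at most -3.77). With quantile normalization the log2 ratio was -3.03 on chip A and at most -3.19 on chip B. The chip B value is a limit in both settings, so whether the probe sets came closer cannot be said. The probe sets thus gave the same top tissue, while on chip A all 5 tissues were above their bounds and on chip B 1 was. They disagreed on liver and hypothalamus, which were under bounds of 792 and 649.5 on chip B. The chip A values of pancreas and muscle are themselves below the chip B bounds of 2608 and 1639.5, so no disagreement can be shown there.

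Fasn, fatty acid synthase, which carries out every step of chain building after malonyl-CoA, had 1 probe set, on chip B. It read 6220.5 in liver, 22759.5 in white adipose, 508 in pancreas, 903 in muscle and 2575 in hypothalamus. White adipose was first and liver second, each at least 2-fold above the next. Hypothalamus followed, above its bound, while pancreas and muscle were under theirs, so hypothalamus was not told apart from them. Liver was 3.66-fold lower than white adipose (log2 ratio -1.87, and -2.88 with quantile normalization) and at least 2.39-fold above the other tissues, a bound that the noise of the pancreas array sets. White adipose was at least 8.73-fold above pancreas, muscle and hypothalamus.

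Me1 and Pgd, the measured members that supply NADPH, were highest in white adipose. Me1, cytosolic malic enzyme, which yields NADPH as it turns malate into pyruvate, read 1107.5 in liver, 7076 in white adipose, 145 in pancreas, 783 in muscle and 454 in hypothalamus. Liver was 6.39-fold lower than white adipose (log2 ratio -2.68), and white adipose was at least 6.07-fold above the other tissues. Liver and hypothalamus lay above their bounds, whereas pancreas and muscle were under theirs, so the order below white adipose is not settled. Pgd, 6-phosphogluconate dehydrogenase of the pentose phosphate pathway, read 294.3 in liver, 8102 in white adipose, 143 in pancreas, -122 in muscle and 493 in hypothalamus. Only white adipose and hypothalamus exceeded their bounds, and the liver value fell just short of its bound of 295.3. Liver was at least 27.4-fold lower than white adipose (log2 ratio at most -4.78, and -3.92 with quantile normalization). The name of the Pgd probe set marks it as designed for a gene family, so related messages may add to its values. Tkt, transketolase of the non-oxidative branch of the same pathway, read 1394 in liver, 14747 in white adipose, 290.2 in pancreas, -729.6 in muscle and 2122 in hypothalamus, and was 10.6-fold lower in liver than in white adipose. Taldo1, transaldolase, which works beside Tkt and was picked with its values in view, read 796 in liver and 3926 in white adipose, 4.93-fold lower in liver.

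**Figure D2:**
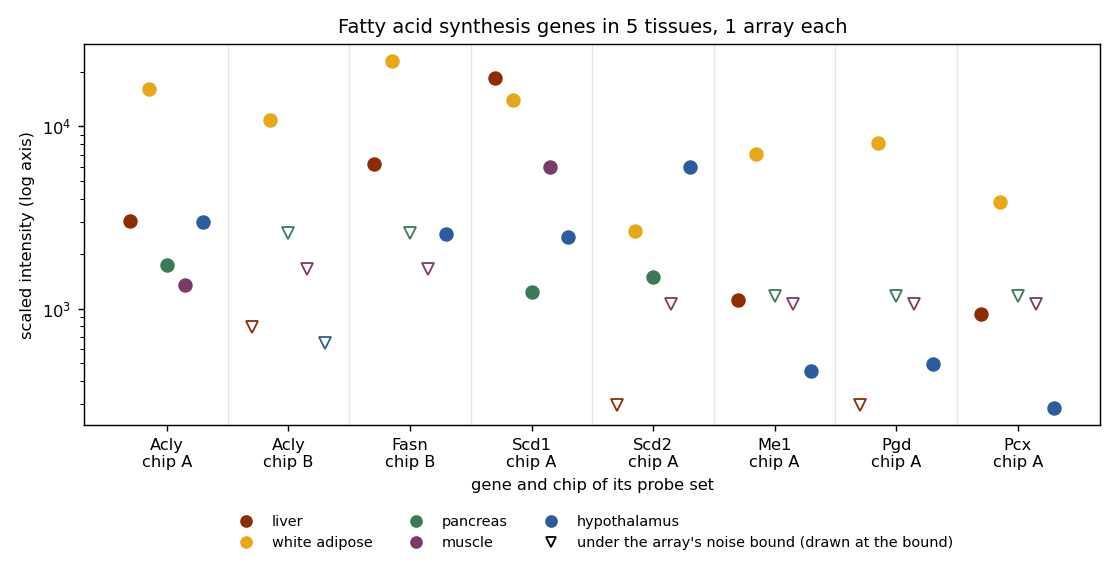
Scaled intensity (log axis) of each member probe set in liver, white adipose, pancreas, muscle and hypothalamus, 1 array each; open triangles are drawn at the noise bound for values under it. White adipose is the highest mark for 6 of the 8 probe sets, liver for Scd1 and hypothalamus for Scd2.

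Pcx, pyruvate carboxylase, which makes oxaloacetate in mitochondria and serves both fatty acid synthesis and gluconeogenesis, was also lower in liver. Its probe set on chip A read 935 in liver, 3825 in white adipose, 182 in pancreas, 60.1 in muscle and 284 in hypothalamus. White adipose was first, with liver 4.09-fold lower (log2 ratio -2.03), and liver was at least 2-fold above hypothalamus. Pancreas and muscle were under their bounds of 1166 and 1065. These bounds exceed the liver value, so the order below white adipose is not settled. The same message is read by 4 control segments spread between its 5′ and 3′ ends, on each chip, and all 8 of these readings were called lower in liver. The 3′ segment read 2938 in liver and 11143 in white adipose on chip A, and 6164 in liver and 15172 in white adipose on chip B, so liver was 3.79-fold and 2.46-fold lower. The next segment, middle B, read 725 in liver and 5601 in white adipose on chip A, and 1204 in liver and 6351 in white adipose on chip B, which made liver 7.72-fold and 5.28-fold lower. Thus on both chips the difference was larger at middle B than at the 3′ end.

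Toward the 5′ end liver came close to the noise. Middle A read 321 in liver and 2637 in white adipose on chip A, 8.21-fold lower in liver, and 393 in liver and 2319.9 in white adipose on chip B, at least 2.93-fold lower in liver. At the 5′ segment liver was under its bound on both chips, at 286 and 512, while white adipose read 1785 and 1646, so liver was at least 6.04-fold and at least 2.08-fold lower. The call at the 5′ segment on chip B ended with 75th percentile scaling, at a log2 ratio of at most -0.77, and the other 7 segment readings stayed at least 2-fold lower. White adipose itself read 6.24 times more at the 3′ than at the 5′ segment on chip A and 9.22 times more on chip B, and liver at least 9.95 and at least 7.78 times more. The slope along other messages also differed between the tissues: for Actb, beta-actin, the 3′ segment read 2.84 and 2.61 times the 5′ segment in liver (chips A and B), against 1.56 and 1.51 times in white adipose. For Gapdh the same ratio was 1.18 and 1.35 in liver and 0.881 and 0.943 in white adipose. These ratios, a common check of RNA and cDNA integrity, were higher in liver for Actb and Gapdh on both chips, and their part in the members' differences was not tested.

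**Figure D3:**
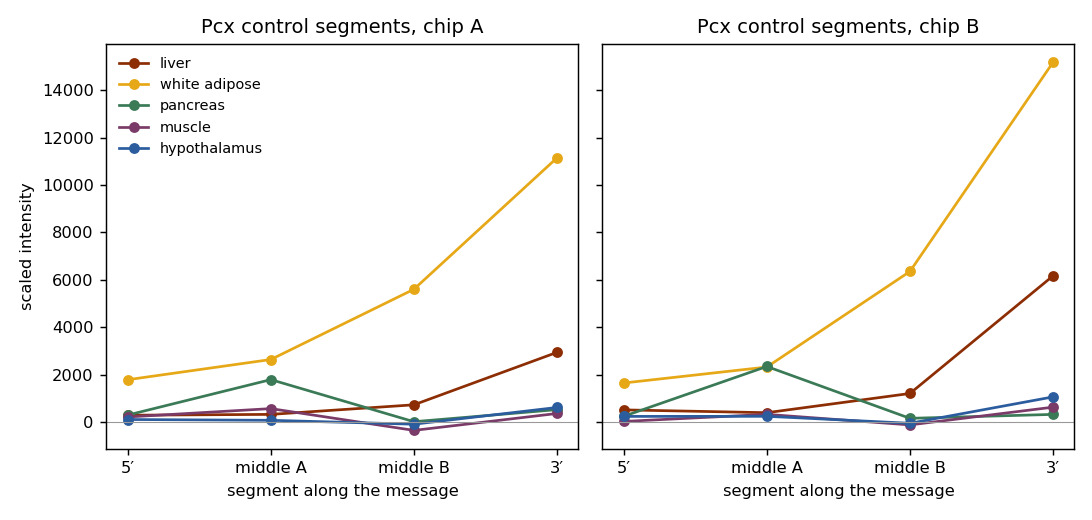
Scaled intensity (linear axis) of the 4 Pcx control segments ordered along the message on chip A (left) and chip B (right), with 1 line per tissue. White adipose climbs to 11143 and 15172 at the 3′ end with liver second at 2938 and 6164, and pancreas stands out at middle A only.

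Between the chips, the 3′ segment of Pcx shifted most of the 15 probe sets that could be compared, by 0.62 log2 units in the ratio of liver over white adipose, and middle B followed with 0.55. The direction held on both chips. One segment behaved differently in pancreas: middle A read 1788 there on chip A and 2342.5 on chip B, while the other 3 segments read between 13.0 and 521 in pancreas. On chip A middle A was above the pancreas bound of 1166 and on chip B it was under the bound of 2608. In hypothalamus the 3′ segment was above the bound on both chips, at 614 and 1059, and the other 3 segments were not, while in muscle no segment was above its bound.

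The desaturases Scd1 and Scd2, which act on the same kind of substrate and are products of neighbouring genes, had unlike patterns. Scd1 read 18359.6 in liver, 13928 in white adipose, 1229 in pancreas, 6019 in muscle and 2486 in hypothalamus. Liver was 1.32-fold higher than white adipose (log2 ratio 0.40), which is less than the 1.54-fold change that the repeat on another chip made, so these tissues were not told apart. The log2 ratio was 0.10 with spike scaling and 0.70 with quantile normalization. Below them the order was muscle, hypothalamus and pancreas, each at least 2-fold under its neighbour above, and liver was 3.05-fold and white adipose 2.31-fold above muscle. Scd2 read 27.9 in liver, 2669.8 in white adipose, 1489 in pancreas, 159 in muscle and 5967 in hypothalamus. Hypothalamus was highest, with white adipose at 0.447 of it, and liver, under its bound, was at least 9.04-fold below white adipose (log2 ratio at most -3.18). This limit moved with the noise bound and the scaling, between -4.80 with the bound at the 5th percentile and -2.12 with quantile normalization. White adipose and pancreas were not called apart for Scd2. The Scd2 probe set stayed near 0 in liver, where Scd1 was brightest, so Scd1 message gave no reading above noise on it there. Whether the Scd1 probe set takes up Scd2 message in hypothalamus was not tested. Oligodendrocyte markers were above the bound for 5 of 6 genes in hypothalamus and for none of the 6 in liver, white adipose, pancreas or muscle, and Mobp, a myelin gene, read 7340.2 in hypothalamus; their part in the Scd2 value was not tested.

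Against the tissues that are not main sites of fat synthesis, white adipose was called distinct for more probe sets than liver. It was at least 2-fold above the highest of pancreas, muscle and hypothalamus for 7 of the 8 probe sets, where 1.35% of all probe sets passed, the exception being Scd2. Liver passed the same rule for 2 of the 8, Fasn and Scd1, where 2.47% of all probe sets passed. For Acly on chip B, Me1, Pgd, Pcx and Scd2 the liver value lay under the noise bound of pancreas. Liver could not pass there whatever the pancreas level, so the counts of the 2 tissues are not on equal terms. By the stricter rule of at least 4-fold above every other tissue, with low values raised to the median of the arrays, 5 of the 8 were selective for white adipose, against 0.911% of all probe sets. These were both probe sets of Acly and those of Me1, Pgd and Pcx. The floor of this rule, 174.8 on chip A and 122.5 on chip B, is lower than every noise bound. With each array's noise bound as floor instead, 4 of the 8 were selective for white adipose. For Pcx the bound shows white adipose at least 3.28-fold above pancreas, short of 4-fold. The Pcx call thus rests on a pancreas reading of 182, which did not exceed its bound of 1166. Among the Pcx control segments, middle B was selective for white adipose on both chips and the 5′ segment on chip A only. The 3′ segment and middle A were selective on neither chip. At the 3′ segment liver was only 3.79-fold (chip A) and 2.46-fold (chip B) below white adipose. None of the 8 member probe sets was selective for liver (2.12% of all), pancreas (3.58%), muscle (1.85%) or hypothalamus (1.98%). In pancreas 3 of the 8 probe sets were above the noise bound and in muscle 2, so low values there are limits of these arrays and not absence.

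Genes around the pathway were described by lists of textbook members, 1 probe set per gene. Over all 6137 genes 8.07% were called lower in liver than in white adipose and 5.74% higher, and the median log2 ratio, with low values raised to the floor, was 0.00. Of these genes 3658 had no ratio, and over the 2479 with a ratio 20.0% were lower and 14.2% higher, with a median of -0.25. Of the 7 members 6 were lower, with a median of -2.40. Among 18 measured genes of precursor and NADPH supply, 8 were lower in liver, 2 were higher and the median was -0.53. Besides Tkt, the lower ones included Pkm, the muscle type of pyruvate kinase (7.69-fold lower, by a probe set of family design), Slc2a4, the insulin-regulated glucose transporter (at least 4.60-fold and at least 6.06-fold lower by its 2 probe sets), and Hk2, an insulin-sensitive hexokinase, at 168 in liver and 4460.1 in white adipose (at least 5.63-fold lower). The higher ones were Slc2a2, the glucose transporter of hepatocytes (at least 6.94-fold), and Idh2, mitochondrial isocitrate dehydrogenase (2.46-fold), whose call ended with spike scaling, just under 2-fold.

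In the list of elongation, desaturation and malonyl-CoA genes, 9 genes, none of them a desaturase, were measured. Of these 2 were lower in liver, 2 were higher and 3 were under both bounds, with a median of -0.18. Thrsp, a protein induced by thyroid hormone and feeding that promotes fatty acid synthesis, read 2094 in liver and 13527 in white adipose, 6.46-fold lower in liver. Elovl6, which extends palmitate, the product of Fasn, read 765 in liver and 2366 in white adipose, 3.09-fold lower, although its other probe set was under both bounds. Elovl2, which extends long polyunsaturated chains, read 3574 in liver and 16.1 in white adipose, at least 9.16-fold higher in liver, and Hacd3, a dehydratase of the elongation cycle, was 4.07-fold higher.

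Esterification genes gave 2 lower and 1 higher of 8 measured, with a median of -0.67. Dgat1, which adds the last acyl chain to triglyceride, was 5.69-fold lower in liver, Agpat3, an acyltransferase, at least 2.09-fold lower, and Lpin2, a phosphatidate phosphatase, at least 2.69-fold higher. The call of Agpat3 ended with 75th percentile scaling and with quantile normalization, and that of Lpin2 with quantile normalization. Of 21 measured regulators 11 were under the bound in both tissues, none was called higher in liver and 1 lower: Pparg, a nuclear receptor that drives adipocyte differentiation, at -5.99 in liver and 1675 in white adipose, at least 5.67-fold lower. Pparg is also among the adipocyte markers used above to check the labels. The count of regulators depended on the noise bound and the scaling, with 3 lower and 1 higher with the bound at the 5th percentile, 3 lower and 2 higher without a bound, and 3 lower with spike scaling. The median over the regulators was 0.00.

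For pyruvate use and gluconeogenesis 4 of 14 genes were higher in liver and 2 lower, with a median of 0.33; with spike scaling 4 were higher and 4 lower. Fbp1, fructose bisphosphatase, was at least 22.2-fold higher in liver, Got1 and Got2, the aspartate aminotransferases, at least 6.90-fold and 6.62-fold higher. Pdha1, a subunit of pyruvate dehydrogenase, was 4.23-fold lower in liver and Mccc1, of leucine breakdown, 2.74-fold lower. In sterol synthesis 4 of 8 measured genes were higher in liver, none was lower and the median was 1.51. The count of higher genes was 3 with quantile normalization, 3 with spike scaling and 5 with 75th percentile scaling. Hmgcs1, the synthase that opens the pathway, read 9092 in liver and 1897 in white adipose, 4.79-fold higher in liver. Idi1, an isomerase of the same pathway, was 4.83-fold higher and Ebp, a sterol isomerase, at least 4.23-fold higher. The median of the sterol list thus lay above 0 and that of the members below it.

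**Figure D4:**
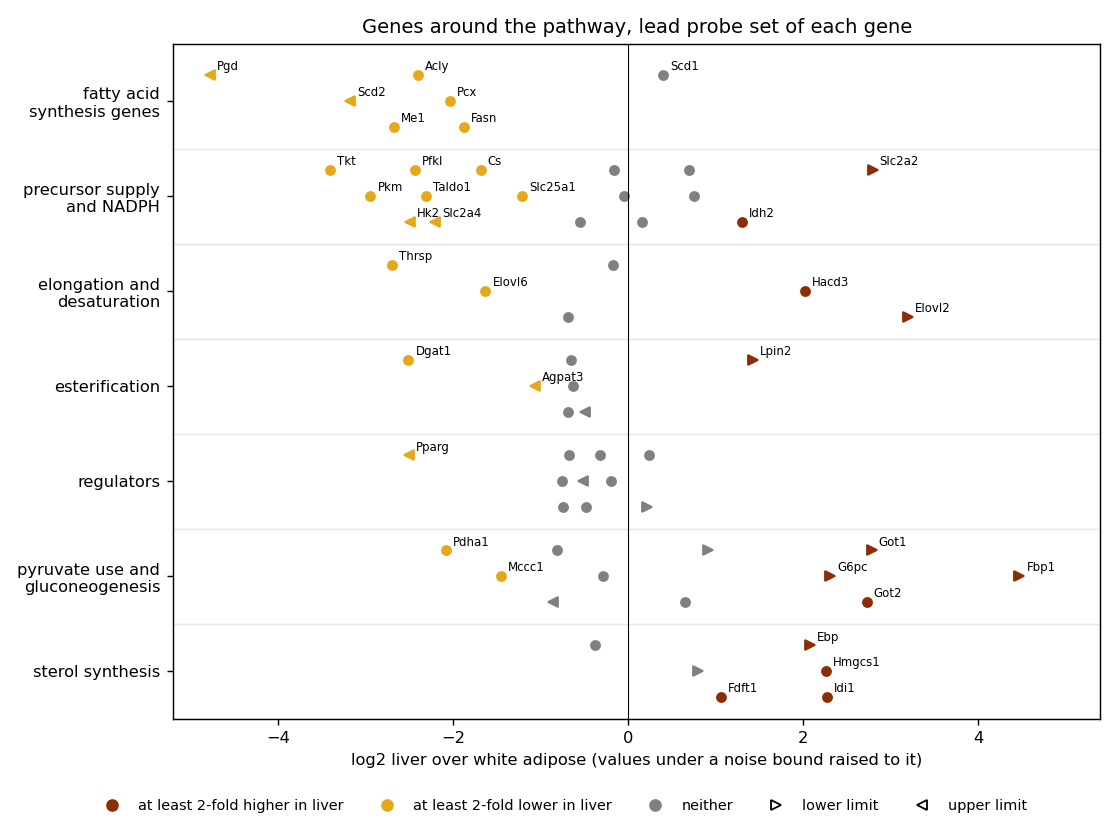
Log2 ratio of liver over white adipose for the genes of each list, 1 probe set per gene, with genes that had no ratio left out. Red marks are at least 2-fold higher in liver, yellow marks at least 2-fold lower, and triangles are limits. Of the 7 fatty acid synthesis genes 6 lie left of 0 and the called sterol synthesis genes lie right of it.

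Profiles across the 5 tissues were compared by the root mean square difference of centred log2 values among probe sets of the same chip above noise in the same tissues, a description over 5 arrays. All 5 tissues entered the difference, with low values raised only to the floor. For Fasn, Me1, Pcx and Scd2 only 3 tissues were above noise, and for Pgd 2, so part of those profiles lies within the noise. Pcx lay nearest to Elovl6 (0.63 log2 units) and then to Acly (0.67). Pgd lay nearest to Mpp1 (0.84) and then to Tkt (0.86), an enzyme of the same pathway. Acly had Gpx4 (0.56) and Grina (0.57) as neighbours, and Fasn had Dbi, an acyl-CoA binding protein, at 0.86 and Ctsa at 0.94. For Me1 the nearest were Dhrs7 (0.68) and Id3 (0.69). Scd1 was nearest to Tapbp (0.57) and Scp2, a sterol carrier protein (0.64), and Scd2 to Tmem50b (0.78) and Reep5 (0.92).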

How the data were processed

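The values deposited by the authors are linear intensities, whole numbers that go below 0 in part, and per the labels biotin-labelled cRNA from total RNA was hybridised after the maker's manual. The 2% trimmed mean of each array lay between 500.8 and 501.5, so the arrays had been scaled; the sources used here name no software. Each array was rescaled to the mean of its chip's 2% trimmed means, controls left out. Gene symbols came from the platform annotation, updated by gene identifier through GRCm38.p6, used for names and promoter sequences. A gene's lead probe set has the highest rank of mean log2 value. The share of probe sets above the noise bound ran between 8.36% and 41.1% of an array, which differed by array. With 1 array per tissue and chip no test was made. Named genes were all members, the 3 largest ratios per direction and list, and the 2 nearest profiles per member. Taldo1, and markers beyond the brightest 3 of a list, are exceptions chosen after seeing values. Slc2a4 is a further exception, since by its lead probe set it lies outside the 3 largest and below Pfkl, which is not named above. The members and lists were chosen with earlier results of these data known. Python 3.11.15 with numpy 2.4.6 and pandas 2.3.3 was used.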

Additional observations from a re-analysis of the deposited data

How the results depend on the processing

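No direction of a member turned under any alternative that was run. Between 6 and 7 of the 8 member probe sets were called lower in liver, none higher, and between 4 and 6 selective for white adipose. The median log2 ratio of liver over white adipose over the 7 members, -2.40, became -2.88 after quantile normalization, -2.17 with 75th percentile scaling, -2.71 with spike scaling, -2.15 with the floor at the 75th percentile and -2.68 with the mean over a gene's probe sets. That of the esterification list, -0.67, became -1.34 after quantile normalization, -1.11 with spikes, -0.41 with 75th percentile scaling and -0.33 with the higher floor. That of the sterol list, 1.51, was 1.78 with 75th percentile scaling, 1.21 with spikes and 0.62 with the higher floor. With spikes the precursor list had -0.73 and the regulators -0.22. The pyruvate list had 0.66 without probe sets of relaxed design and 0.00 with the higher floor. Over all probe sets, the 771 lower in liver were 474 with quantile normalization, 1404 with the noise bound at the 5th percentile, 1558 without a bound and 246 at 4-fold. The 541 higher were 836 with the 5th percentile, 1014 without a bound and 277 at 4-fold. The 119 selective for white adipose were 202 with spikes, 348 at 2-fold, 64 with the higher floor and 32 with each array's noise bound as floor. With spikes the esterification list had 4 genes lower against 2. The cause of these shifts was not tested. No paired analysis was possible because each tissue has 1 array per chip. Within each chip noise limits pancreas and muscle most. On chip A 15.5% of probe sets were above the bound in pancreas and 16.6% in muscle, against 35.0% in liver and 32.9% in white adipose. On chip B the shares were 8.36% in pancreas and 11.2% in muscle, against 16.4% in liver and 16.8% in white adipose.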
